A study of Mus musculus with 5 samples.

Results

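Brushing of the skin was followed 24 h later in 16 of the 153 mice of the series, 8 mice of the 24 h scratched group and 8 mice of the 24 h control group. The mice were found by the group row of the deposited count table and by the time and treatment given for each mouse in the sample information. All 16 were female SKH-1 mice, an immunocompetent hairless strain, aged 7 to 8 weeks and housed 4 to a cage, and full skin of the upper back was sampled. The scratched mice received 12 strokes of a sterile metal brush followed by 10 μL of sterile PBS, and the control mice received 10 μL of sterile PBS on intact skin. PBS was thus shared by both groups, and brushing was the treatment that differed. The study asked how superficial scratching changes gene expression in the skin. Cage was not modelled, and cage mates cannot be told apart from other mice here.

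Each mouse had 1 library of 3′ RNA sequencing, with 948267 to 1697556 unique molecular identifiers (UMIs) in the control group and 867915 to 2023202 in the scratched group. RNA integrity numbers were 7.8 to 9.9 (median 8.35) in control and 8.2 to 9.6 (median 9.15) in scratched mice. Sequencing pool 1 held 4 mice of each group, pool 3 held the remaining control mice (replicates 1 to 4) and pool 2 the remaining scratched mice (replicates 5 to 8). In pool 1 RNA integrity was 8.1 to 8.4 in control and 8.5 to 9.6 in scratched mice, without overlap. It was not modelled, and in pool 1 it cannot be told apart from brushing. Expression levels are given as CPM, counts scaled to the library size, with the lowest, median and highest of the 8 mice of a group. The keratinocyte genes Krt5, Krt14, Krt1 and Krt10 and the fibroblast genes Col1a1, Col1a2, Col3a1 and Dcn were detected in all 16 mice, and 0 of these 8 genes were called. The libraries came from whole skin, so fewer cells of a type and less RNA per cell cannot be told apart in any of the values that follow.

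Skin is covered by an epidermis in which keratinocytes divide in the basal layer, change their keratins as they move up, and end as a cornified layer of cross-linked protein and lipid. Langerhans cells and dendritic epidermal T cells sit among the keratinocytes of the mouse, and fibroblasts, macrophages, mast cells, fat and a thin sheet of muscle lie beneath. Keratinocytes at an injured surface are known to release chemokines that draw neutrophils and monocytes and to switch on keratins, protease inhibitors and antimicrobial proteins that are scarce in resting skin.

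The brushed skin had more transcripts of several interferon-stimulated genes, myeloid cell receptors, chemokines, stefins and wound-edge keratinocyte genes, and fewer of some dendritic and Langerhans cell genes, Skint genes and fatty acid synthesis genes. Of 11872 genes tested, 403 were differentially expressed (DEGs, 3.39%), a DEG being a gene whose Benjamini–Hochberg adjusted p was below 0.05 in edgeR's quasi-likelihood test and whose log2 fold change was 0.33 or more in either direction. Of these, 224 rose (1.89% of the genes tested) and 179 fell (1.51%). The absolute log2 fold change of the DEGs had a median of 0.82, and it was at least 1 for 98 genes that rose and 58 that fell, and at least 2 for 23 that rose and 6 that fell. More rises than falls thus passed each of these limits. Genes were tested if they passed the count filter in either group. Some of the largest changes, among them Ifit1bl1, Slfn4 and Defb8, rest on low counts in the group where the gene was lower. How far the filter shaped these counts was not tested. The median log2 fold change over all tested genes was -0.01, beside which the list medians given here are to be read.

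Single mice overlapped for most DEGs. In 64 tested genes (0.539%) the CPM of the groups did not overlap, with every scratched mouse above every control mouse in 34 genes (0.286%) and below in 30 (0.253%), and 59 of the 64 were DEGs. On a principal component analysis of the 16 mice, the component of largest variance (22.8%) ran from -26.8 to -7.21 in the control mice and from 0.96 to 28.3 in the scratched mice. The 4 scratched mice of pool 1 lay at 17.3 to 28.3 and the 4 of pool 2 at 0.96 to 13.6, so the pool 2 mice were nearer to the control mice. All 403 DEGs had the same direction within pool 1 alone, where 331 of them showed a larger fold change than over all 16 mice. The mice of pool 1 are among the 16 by which the DEGs were called, so the shared direction is not separate support. With pool as a covariate the count of DEGs was again 403 (203 higher, 1.71%, and 200 lower, 1.68%), of which 242 were the same genes. Within pool 1 it was 241 (2.03%; 128 higher, 1.08%, and 113 lower, 0.952%). Pool and anything else that differed between the scratched mice of pools 1 and 2 cannot be told apart.

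Type I interferon-stimulated genes, which most cells switch on when interferon binds its receptor, were higher in scratched skin. Of the 28 measured members of that list, 11 rose and 0 fell, all 28 had a positive log2 fold change, and the list median was 0.81. Rsad2, whose product viperin blocks the replication of many viruses, stood at 1.08 to 13.8 CPM (median 8.09) in control mice and 11.5 to 79.3 CPM (median 29.5) in scratched mice. Of the 8 scratched mice, 7 lay above every control mouse, and the log2 fold change was 2.25 (standard error 0.42, adjusted p = 0.00512 from edgeR). Rsad2 lies on chromosome 12 from 26492745 to 26506451 in Gencode M39 on GRCm39, the annotation and build of all positions given here. Ifit3, an interferon-induced protein that takes part in sensing foreign RNA, stood at 6.47 to 22.4 CPM (median 9.83) in control and 14.1 to 73.6 CPM (median 30.9) in scratched mice, a log2 fold change of 1.42. Its neighbours on chromosome 19, Ifit1 and Ifit1bl1, rose by 1.25 and 3.70, and near-identical copies in this cluster may share reads. Ifit1bl1 stood at only 0 to 3.37 CPM in control and 1.46 to 20.5 CPM in scratched mice, so its fold change rests on few counts. The control mice were themselves spread out for these genes, and 5 scratched mice lay above every control mouse for Ifit3 and 7 for Rsad2.

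The other members that rose included factors that carry the interferon signal. Irf7, the transcription factor that amplifies type I interferon production, was at 9.70 to 46.0 CPM (median 25.8) in control and 27.8 to 111 CPM (median 61.2) in scratched mice (log2 fold change 1.29, adjusted p = 0.0177 from edgeR), and it was called under all 24 alternative settings. Isg15, a ubiquitin-like modifier, rose by 1.35 (adjusted p = 0.0450 from edgeR), and Oas1a, which makes the messenger that activates RNase L, by 1.35. Isg15 lost its call when any of 11 single mice was left out, with adjusted p up to 0.107 from edgeR. Zbp1, a sensor of nucleic acid in Z form, rose by 1.04. The interferon receptor subunit Ifnar1 rose by 0.38, a call that 6 of the 24 settings made. Of 24 genes known chiefly as interferon gamma targets, 3 rose and 0 fell, and their median was 0.44.

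The promoters of several of these genes hold the interferon-stimulated response element, the site that factors activated by interferon are known to bind, and windows of 6 genes that rose are shown. The letters searched were GAAA, any 2 bases and GAAA again, on both strands, from 250 bases before to 50 bases after the start of the canonical transcript in the GRCm39 genome. They were found in 382 of 10981 promoters of tested protein-coding genes (3.48%), in 19 of 213 of the genes that rose (8.92%), in 7 of 174 that fell (4.02%), and in 14 of 27 of the interferon-stimulated list (51.9%). A match is a description of the letters and not evidence of binding. The windows are written in the direction of the gene on GRCm39, with the match in capitals, which reads TTTC, 2 bases, TTTC where the element lies on the other strand.
Ifit1 (chr19:34618176-34618203, plus strand): aggcttcagTTTCACTTTCcagtctcag
Ifit3 (chr19:34560764-34560791, plus strand): agtggtaagTTTCACTTTCctcttctgg
Rsad2 (chr12:26506553-26506580, minus strand): tggtccaacTTTCATTTTCagaaaacag
Isg15 (chr4:156285329-156285356, minus strand): taggaaaagGAAACCGAAAcagaaaata
Ifi204 (chr1:173594628-173594655, minus strand): aaagccaggGAAATTGAAAgctatgaac
Cxcl10 (chr5:92496943-92496970, minus strand): cacgctttgGAAAGTGAAActtacctca

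The Ifi200 genes, a mouse family of DNA sensors and transcription regulators on chromosome 1, moved as a block. Of 10 tested genes between the ends of the block, 7 rose, namely Ifi209, Ifi207, Ifi204, Ifi211, Ifi202b and the predicted genes Gm7897 and Gm18445. Here and below, a block or stretch runs from its first to its last DEG. Uncalled neighbours outside it are not counted, which raises the share of its genes that changed. Ifi202b stood at 144 to 315 CPM (median 244) in control and 238 to 544 CPM (median 360.4) in scratched mice, and it was also called in mice scratched without PBS. Its log2 fold change was 0.69, and those of Ifi207 and Ifi204 were 0.98 and 0.82. Another block of this kind held Slfn8, Slfn2, Slfn1 and Slfn4 on chromosome 11, Schlafen genes that are known from T cell quiescence and myeloid cells. All 4 tested genes between its ends rose, while 7 Slfn genes were tested in all. Slfn4, which in mice is expressed by myeloid cells under interferon, stood at 0 to 2.43 CPM (median 0.993) in control and 0.732 to 30.6 CPM (median 7.46) in scratched mice, with a log2 fold change of 3.23 on few counts. Copies within both blocks are alike and may share reads.

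**Figure D1:**
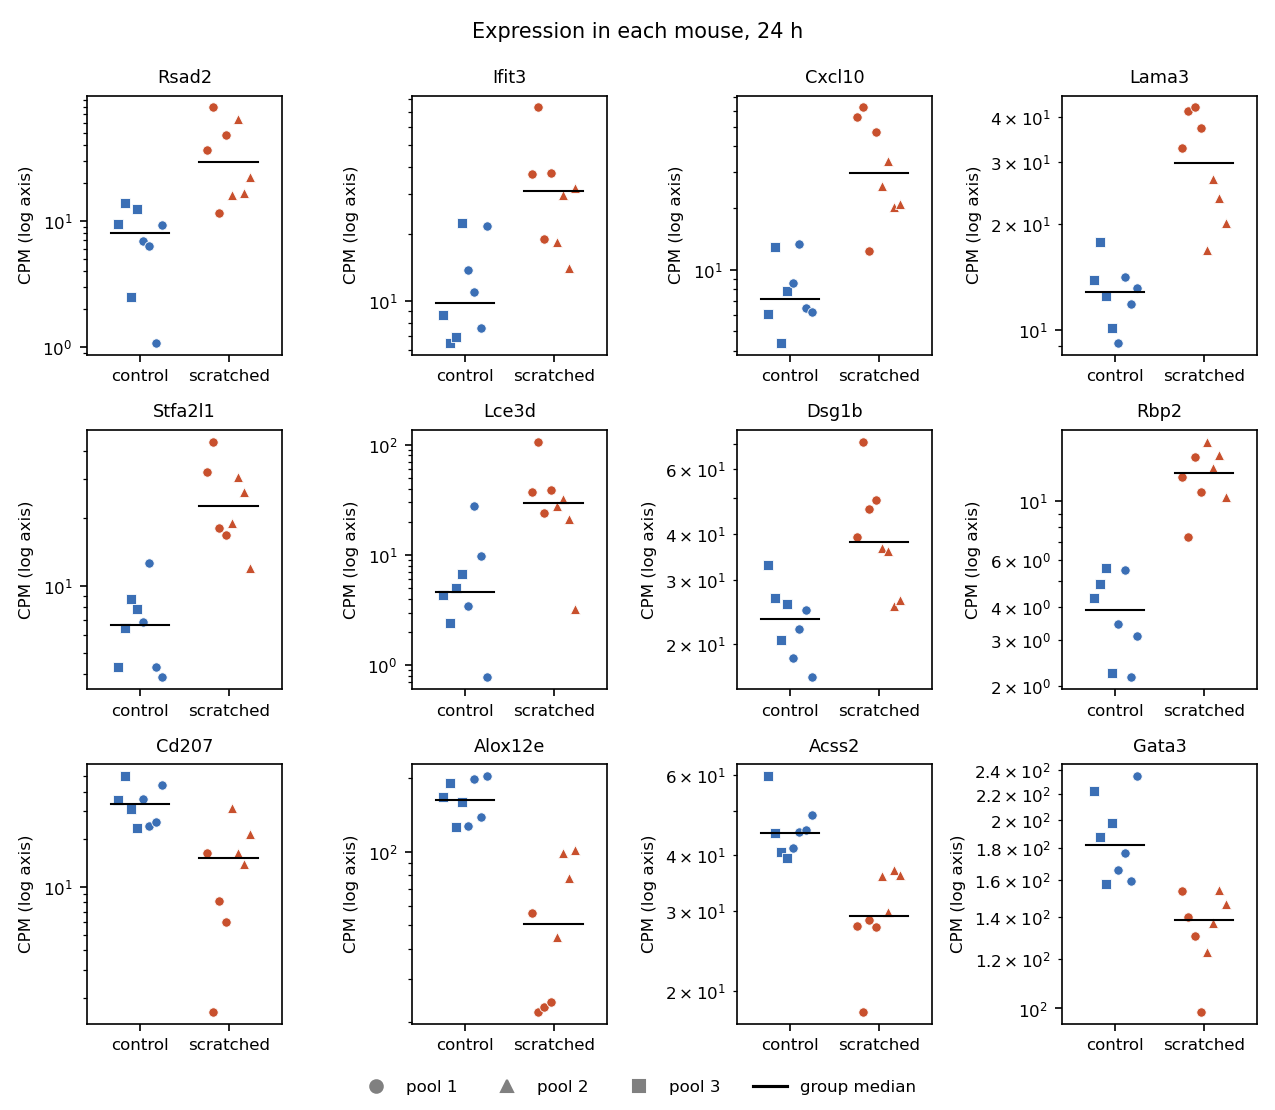
CPM of 12 genes in each of the 8 control and 8 scratched mice at 24 h on a log axis, where circles are mice of sequencing pool 1, triangles pool 2 and squares pool 3, and lines are group medians. For Rbp2, Alox12e, Acss2 and Gata3 the groups do not overlap. For each of the other genes shown at least 1 scratched mouse lies within the range of the control mice, and for Ifit3, Lce3d and Dsg1b more than 1 does.

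Chemokines that attract neutrophils, monocytes and activated T cells were higher, and several chemokines of resting skin were lower. Of 30 measured chemokine genes, 7 rose and 4 fell, with a median of 0.23. Cxcl1 and Cxcl2, both ligands of Cxcr2 on neutrophils, rose by 1.21 and 1.24. Cxcl1 stood at 4.32 to 28.1 CPM (median 16.4) in control and 23.7 to 56.2 CPM (median 37.4) in scratched mice, and 6 scratched mice were above all control mice. They lie on chromosome 5 beside Cxcl5, Ppbp and Pf4, and 5 of 6 tested genes of that stretch rose, although Ppbp and Pf4 are platelet chemokines. Ppbp rose by 2.13 and Pf4 by 0.77.

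The interferon-induced chemokines Cxcl10 and Cxcl11, ligands of Cxcr3 on T cells and natural killer cells, rose further. Cxcl10 stood at 4.36 to 13.4 CPM (median 7.16) in control and 12.3 to 62.1 CPM (median 29.8) in scratched mice (log2 fold change 2.07, adjusted p = 0.00105 from edgeR), and 7 scratched mice lay above every control mouse. Ccl5 rose by 1.02. Of the chemokines that fell, Ccl27a, which keratinocytes make to draw skin-homing T cells, stood at 108 to 208 CPM (median 143) in control and 20.4 to 122 CPM (median 80.9) in scratched mice (log2 fold change -1.12, adjusted p = 0.0341 from edgeR). Here 7 scratched mice lay below every control mouse. Ccl20, the ligand of Ccr6, fell by 0.78 on the log2 scale, and Ccl24, an attractant of eosinophils, by 1.09.

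The letters of the NF-κB element, GGGA, any 2 bases and TTCC on either strand, were in the promoters of 6 of the 30 chemokine genes, against 182 of all 10981 promoters (1.66%), 13 of 213 of the genes that rose (6.10%) and 3 of 174 that fell (1.72%). Windows of 4 chemokines that rose and of Lcn2, which encodes a protein that withholds iron from bacteria, are shown since 3 of the chemokines have the same core. The match is in capitals and reads GGAA, 2 bases, TCCC where the element lies on the other strand. A promoter was counted once however many matches it held.
Cxcl1 (chr5:91039024-91039051, plus strand): ctgtactccGGGAATTTCCctggcccgg
Cxcl2 (chr5:91051652-91051679, plus strand): ctgagctcaGGGAATTTCCctggtcccc
Cxcl5 (chr5:90907120-90907147, plus strand): ccaagtccaGGGAATTTCCccagcatct
Ccl5 (chr11:83421416-83421443, minus strand): gtcttttgtGGAAACTCCCcaagtcctg
Lcn2 (chr2:32277993-32278020, minus strand): aaagccctgGGAATGTCCCtctggtccc

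Some chemokine receptors rose as well. Of 19 measured chemokine receptor genes, 5 rose and 1 fell. Ccr1, which binds Ccl5 and related chemokines on monocytes and neutrophils, stood at 10.1 to 38.6 CPM (median 28.2) in control and 24.9 to 92.4 CPM (median 71.4) in scratched mice, with 6 scratched mice above every control mouse and a log2 fold change of 1.25. Ccr2, which brings monocytes out of the bone marrow, rose by 0.71 and C3ar1, the receptor for the complement fragment C3a, by 1.06. Xcr1, a receptor of cross-presenting dendritic cells that lies beside Ccr1 and Ccr2 on chromosome 9, fell by 1.20 on the log2 scale.

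Surface receptors of monocytes, macrophages and neutrophils rose in families that lie next to each other. On chromosome 19, Ms4a6b, Ms4a6c, Ms4a6d, Ms4a7 and Ms4a4c rose, which made 5 of the 7 tested genes of the stretch, and on chromosome 6 Clec4a1, Clec4a2, Clec4a3, Clec4d and C3ar1 rose, 5 of 8. Ms4a6b stood at 31.1 to 78.6 CPM (median 52.5) in control and 87.8 to 196 CPM (median 130.1) in scratched mice, and all 8 scratched mice lay above every control mouse. Ms4a6d did the same at 37.1 to 82.9 CPM (median 66.4) and 94.4 to 230.1 CPM (median 159.7), and both had a log2 fold change of 1.32. Clec4a3, a C-type lectin receptor of myeloid cells, stood at 71.7 to 171 CPM (median 148) in control and 204 to 299 CPM (median 237) in scratched mice, without overlap. The Ms4a and Clec4a genes resemble each other within each stretch and may share reads.

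Of 17 Fc and paired immunoglobulin-like receptors, 5 rose and 0 fell. Trem1, which amplifies inflammatory signals in neutrophils and monocytes, stood at 0.774 to 5.51 CPM (median 3.41) in control and 6.42 to 18.0 CPM (median 9.38) in scratched mice, so the groups did not overlap although counts were low, and its log2 fold change was 1.65. Fcgr4, an activating receptor for IgG in mice, rose by 1.90 and Fcgr3 by 0.66, and the paired receptor Lilr4b by 0.79. Of 27 sensors of microbes, 7 rose and 0 fell, among them Tlr13, which in mice recognises bacterial ribosomal RNA, at 1.07.

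Other genes of these cells that rose without being on a list of immune receptors were Aif1, a calcium-binding protein of macrophages, at 0.95, and the lysosomal protease Lgmn, at 0.93. Of 19 genes shared by leukocytes at large, 2 rose and 0 fell, with a median of 0.31. Srgn, the core protein of the proteoglycan in leukocyte granules, stood at 289 to 482 CPM (median 458) in control and 488 to 675 CPM (median 556) in scratched mice, an increase without overlap but of only 0.43 on the log2 scale. Alox5ap, which hands arachidonic acid to 5-lipoxygenase in leukocytes, also rose in every scratched mouse beyond every control mouse, by 0.57. The 18 measured genes of inflammatory monocytes had a median of 0.71, and no test compared the lists.

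Several genes of the skin's resident antigen-presenting cells were lower. Among the 19 tested genes of dendritic and Langerhans cells 4 fell and 0 rose, 15 had a negative log2 fold change, and the median was -0.41. Cd207, the lectin langerin of Langerhans cell granules on chromosome 6 from 83648190 to 83654839, stood at 23.6 to 50.2 CPM (median 33.3) in control and 1.64 to 31.5 CPM (median 15.2) in scratched mice (log2 fold change -1.19, adjusted p = 0.0341 from edgeR), and 7 scratched mice lay below every control mouse. Cd209a, a lectin of dermal dendritic cells, fell by 1.14 on the log2 scale. The summed level of the list was 1969 to 2598 CPM in the scratched mice of pool 1 and 2958 to 4044 CPM in those of pool 2, against 3296 to 4765 and 3144 to 4060 CPM in the control mice of pools 1 and 3. The scratched mice of pool 2 therefore overlapped with the control mice while those of pool 1 did not, and with pool as covariate 11 members fell. Mgl2 and Ccl24, which resident dermal macrophages express, fell by 2.01 and 1.09, and Gas6, a ligand by which macrophages recognise dying cells, fell by 0.80, so 3 of the 20 resident macrophage genes fell and 2 rose.

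Skint genes, which in mouse keratinocytes are needed for or related to the selection of dendritic epidermal T cells, fell as well. Of the 9 tested Skint genes, 4 fell and 0 rose, and Skint5, Skint6 and Skint10 are the 3 tested genes of their stretch of chromosome 4. Skint10 stood at 28.3 to 57.9 CPM (median 34.0) in control and 9.64 to 27.4 CPM (median 21.7) in scratched mice, without overlap, and fell by 0.78 on the log2 scale. Skint9 fell by 0.74. Of 18 T and natural killer cell genes, 2 rose, the adaptor Fyb and Ccl5, and 0 fell, while the median was -0.49. So the chemokine and the adaptor, which other leukocytes also express, rose in a list whose other members were mostly lower.

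Genes with products in the outer epidermal layers changed by subfamily. The stefins, inhibitors of cysteine proteases that mouse keratinocytes and neutrophils make, showed the broadest rise. Which of these cells it came from was not tested. Between the outermost DEGs of their stretch of chromosome 16 all 9 tested genes rose, including the neighbour Fam162a. Of 13 measured stefin and cystatin A genes, 8 rose and 0 fell, with a median of 1.26. Stfa2l1 stood at 3.87 to 12.6 CPM (median 6.68) in control and 12.0 to 44.2 CPM (median 22.7) in scratched mice, and 7 of the 8 scratched mice lay above every control mouse (log2 fold change 1.84, adjusted p = 9.36e-04 from edgeR). Csta1 rose by 1.02 and Stfa1 by 2.02, while the copies are near-identical, so the split of reads among them is uncertain.

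The late cornified envelope genes, which encode proteins of the cornified layer, moved in opposite directions. Of 23 measured Lce-type genes, 5 rose and 1 fell, and the list median was -0.11. All 5 that rose belong to the Lce3 group, known in human skin as the one induced by barrier injury. Lce3d stood at 0.774 to 27.6 CPM (median 4.65) in control and 3.21 to 106 CPM (median 29.8) in scratched mice, a log2 fold change of 2.29 with 5 scratched mice above every control mouse. Lce3c rose by 2.08, Lce3b by 2.25, Lce3e by 1.75 and Lce3f by 1.55. Lce1m, of the Lce1 group expressed in resting epidermis, stood at 258 to 1127 CPM (median 515) in control and 98.8 to 334 CPM (median 191) in scratched mice and fell by 1.42 on the log2 scale. Small proline-rich genes, whose products are cross-linked into the same envelope, rose in 4 of 10 cases with 0 falls and a median of 1.16, Sprr2h among them at 1.20.

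Several genes that attach keratinocytes to the basement membrane and to each other rose. Lama3 encodes a chain of laminin 332, on which migrating keratinocytes move. Lama3 stood at 9.18 to 17.8 CPM (median 12.8) in control and 16.8 to 42.7 CPM (median 29.8) in scratched mice (log2 fold change 1.23, adjusted p = 0.00187 from edgeR), and 7 scratched mice lay above every control mouse. Itga6, a chain of the integrin that binds this laminin, rose by 0.55, while Lamb2, a chain of other laminins, fell by 0.90 on the log2 scale. The desmosomal cadherins Dsc1, Dsg1b and Dsg3 rose by 0.84, 0.83 and 0.58, and the gap junction gene Gjb6 by 1.48. The tight junction gene Cldn10 fell by 1.52, the only fall among the 5 of 27 junction genes that were called. The junction list as a whole did not rise. Its median was -0.11, and 16 of the 27 genes were lower in scratched skin while 11 were higher, most of them without a call. Within the basal keratinocyte list as a whole 3 genes rose and 2 fell.

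Keratins of the wound edge rose together with their usual companions. Of 18 wound-edge keratinocyte genes, 8 rose, 0 fell and all 18 had a positive log2 fold change. Krt16 stood at 99.9 to 1060 CPM (median 451) in control and 355 to 2388 CPM (median 1421) in scratched mice (log2 fold change 1.51), and Krt6a at 178 to 1081 CPM (median 564) and 647 to 2160 CPM (median 1240) (1.14). Both showed a wide spread within each group, and 5 and 4 scratched mice exceeded every control mouse. Il33, an alarmin stored in keratinocyte nuclei, rose by 0.92, and its receptor Il1rl1, known from mast cells and type 2 lymphocytes, by 1.32. Of 21 measured genes of the interleukin 1 family and its receptors, 4 rose and 1 fell, and Il1b rose by 0.76.

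Proteases and their inhibitors rose side by side. Klk13 and Klk8, kallikreins that act in the shedding of the cornified layer, rose by 1.05 and 0.41. Spink7, an inhibitor of serine proteases in epithelia, stood at 0 to 7.08 CPM (median 1.94) in control and 8.83 to 30.0 CPM (median 13.2) in scratched mice, so the groups did not overlap, and its log2 fold change was 2.82 (adjusted p = 0.00105 from edgeR). The inhibitors Spink12, Slpi and Wfdc12 rose by 1.31, 1.04 and 1.13. In the other direction went Wfdc21, at -0.74, and the clade A serpins, of which 3 of 9 fell and 0 rose. Serpina3b, one of these, stood at 92.7 to 199 CPM (median 151) in control and 15.7 to 105 CPM (median 40.3) in scratched mice, and 7 scratched mice were below every control mouse. Of 17 clade B serpins, which inhibit proteases inside cells, 0 were called.

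Antimicrobial genes gave a mixed picture. Of 14 measured, 4 rose and 1 fell. Counted by symbol, whether on that list or not, 5 beta-defensin (Defb) genes were tested, of which 1 rose and 2 fell, with a median of -0.67. Reg3g, a lectin that kills Gram-positive bacteria, stood at 5.18 to 32.1 CPM (median 13.4) in control and 28.6 to 72.3 CPM (median 40.6) in scratched mice (log2 fold change 1.49, adjusted p = 0.00471 from edgeR), with 6 scratched mice above every control mouse. Its relative Reg1 stood at 11.2 to 54.5 CPM (median 22.4) in control and 44.2 to 181 CPM (median 98.7) in scratched mice (log2 fold change 1.86). In the mice brushed under a nanomaterial these log2 fold changes were 0.24 and 0.38 and neither was called (adjusted p = 0.463 and 0.248 from edgeR), but the difference between the mice with and without nanomaterial was not called either. S100a9, an abundant protein of neutrophils and injured keratinocytes, rose by 1.31, the only one of 12 S100 genes called. Defb8, a beta-defensin, stood at 4.32 to 243 CPM (median 82.1) in control and 0 to 50.9 CPM (median 2.69) in scratched mice and fell by 2.90 on the log2 scale. The spread was wide in both groups, and 6 scratched mice lay below every control mouse.

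Genes of cell division were slightly higher, and mainly in the scratched mice of pool 1. All 30 mitosis genes and all 29 DNA replication genes had a positive log2 fold change, with medians of 0.31 and 0.42, but only 1 and 2 of them rose, namely Cdca8, Rrm1 and Rrm2. The summed level of the mitosis list was 779 to 923 CPM in the control mice of pool 3, 866 to 1057 CPM in those of pool 1, 1293 to 1340 CPM in the scratched mice of pool 1 and 929.9 to 1034 CPM in those of pool 2. The sums of the DNA replication list lay in the same order, at 691 to 841, 778 to 930.4, 1119 to 1470 and 827 to 990.4 CPM. For both lists the scratched mice of pool 1 stood above all other mice and those of pool 2 overlapped with the control mice. Rrm2, a subunit of the enzyme that makes deoxynucleotides, rose by 0.80, and with pool as covariate 2 mitosis and 5 replication genes were higher. In the mice given nanomaterials, 22 of the mitosis and 20 of the replication genes rose (6.00% of all genes tested there).

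**Figure D2:**
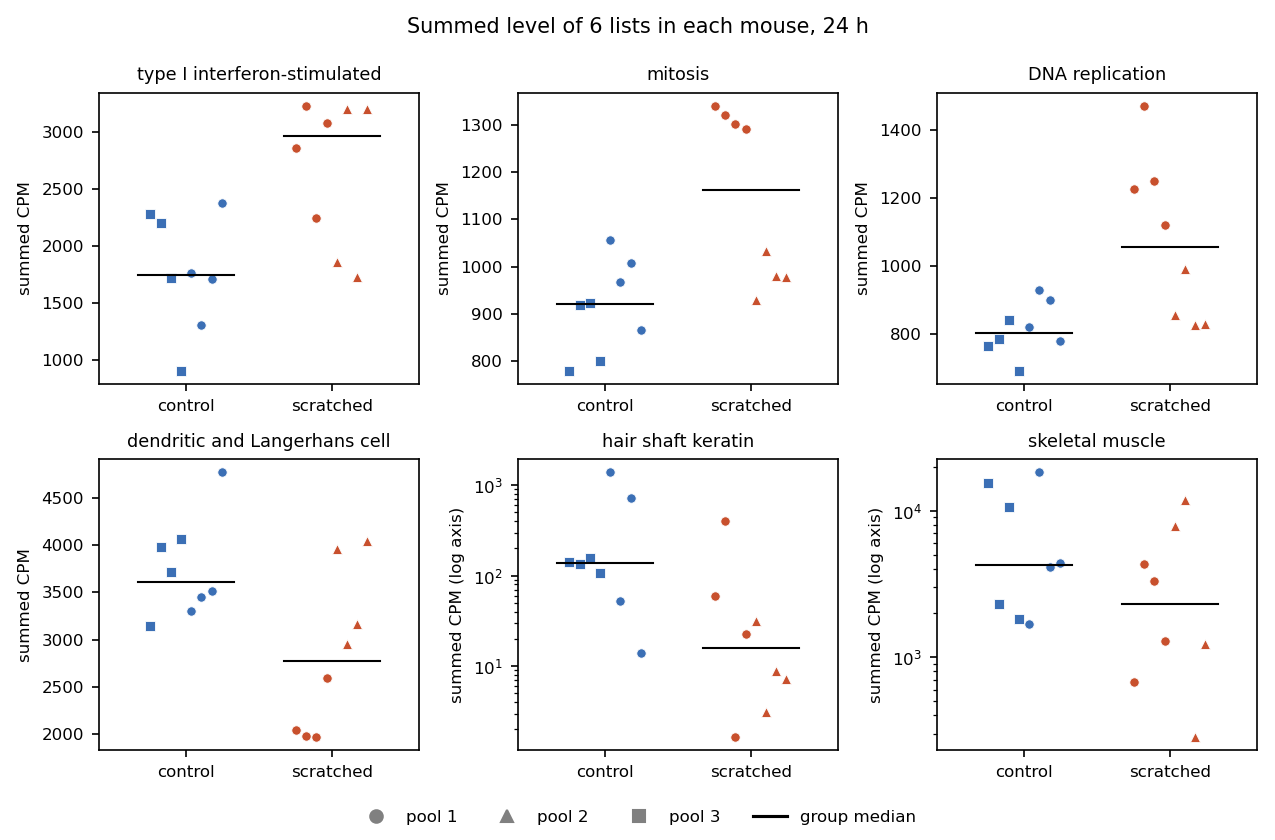
Summed CPM of the tested members of 6 gene lists in each of the 8 control and 8 scratched mice at 24 h, with symbols for the sequencing pools and lines for group medians; the hair and muscle panels have log axes. In the mitosis, DNA replication and dendritic cell panels the 4 scratched mice of pool 1 stand apart from the control mice and the 4 of pool 2 do not, and in the hair and muscle panels mice of the same group differ widely.

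Among the lists of lipid metabolism, that of fatty acid synthesis was lower. Of 27 genes of fatty acid synthesis and elongation, 0 rose and 4 fell, 25 had a negative log2 fold change, and the median was -0.34. Acss2, which makes acetyl-CoA from acetate, stood at 39.3 to 59.6 CPM (median 44.7) in control and 18.0 to 36.9 CPM (median 29.3) in scratched mice, without overlap, and fell by 0.59 on the log2 scale (adjusted p = 0.0169 from edgeR). Scd1 and Scd3, desaturases of skin glands, fell by 0.60 and 1.97. Of 24 cholesterol synthesis genes 1 rose and 0 fell, and of 26 genes of ceramides and barrier lipids also 1 rose and 0 fell, with medians of -0.11 and 0.05. Of 22 fatty acid oxidation genes and targets of PPAR receptors, 1 rose and 3 fell, and the median was -0.15. Decr1, an enzyme of fatty acid oxidation, stood at 93.1 to 105 CPM (median 101) in control and 58.6 to 77.3 CPM (median 67.7) in scratched mice, again without overlap. The oxidation enzyme Acadm fell by 0.43 and Ppargc1a, a coactivator of mitochondrial genes, by 1.16, while Fabp5, the fatty acid carrier of keratinocytes, rose by 0.57. In the nanomaterial mice 2 genes of that list rose and 1 fell. The carboxylesterase Ces1d, of fat and liver, stood at 40.8 to 96.0 CPM (median 56.8) in control and 14.5 to 32.8 CPM (median 30.8) in scratched mice, and every scratched mouse was below every control mouse. The 82 nuclear genes of the respiratory chain had 0 calls, and so had the 79 ribosomal protein genes.

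Lipid mediators and retinoids changed at single steps. Alox12e, the epidermal 12-lipoxygenase of the mouse, stood at 126 to 204 CPM (median 163) in control and 22.1 to 101 CPM (median 50.4) in scratched mice, and all 8 scratched mice were below all control mice (log2 fold change -1.54, adjusted p = 0.00237 from edgeR; chromosome 11 from 70206436 to 70213454). Ptgds, which makes prostaglandin D2, fell by 1.16, and Ptges, which makes prostaglandin E2, rose by 0.68. In the retinoid pathway the binding proteins Crabp1 and Rbp2 and the storage enzyme Lrat rose by 0.84, 1.63 and 0.87, while the serum carrier Rbp4 fell by 0.99. Rbp2 stood at 2.16 to 5.61 CPM (median 3.88) in control and 7.36 to 16.8 CPM (median 12.8) in scratched mice, so the groups did not overlap.

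Apcdd1, Rspo1, Znrf3, Fzd4, Esr1 and Prlr were chosen after their values were seen and stand for no group. Apcdd1, an inhibitor of Wnt receptors, stood at 39.9 to 69.7 CPM (median 48.7) in control and 18.8 to 47.3 CPM (median 29.3) in scratched mice (7 below every control mouse, log2 fold change -0.79). Rspo1, a secreted enhancer of Wnt signals, fell by 0.97, Znrf3, which removes Wnt receptors from the membrane, by 0.77, and the Wnt receptor Fzd4 by 0.54. Of receptors for hormones, Esr1 for oestrogen fell by 0.70 and Prlr for prolactin by 0.59 on the log2 scale, and 6 and 7 scratched mice lay below every control mouse. Gata3, a transcription factor of the epidermis and inner root sheath, showed no overlap between 158 to 235 CPM (median 182) in control and 98.8 to 155 CPM (median 138) in scratched mice, although its log2 fold change was only -0.47. Gata6 fell by 0.94, Sox6 by 1.00 and Foxc1 by 0.45. Ahr, the aryl hydrocarbon receptor, fell by 0.50 while its target Cyp1b1 rose by 0.84, and Nfe2l2, which drives antioxidant genes, rose by 0.42.

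Of 15 dermal fibroblast genes 2 rose and 2 fell, with a median of -0.23. Of 27 wound-induced matrix genes 3 rose and 1 fell, and the same counts held for the 27 matrix proteases and their inhibitors, while of 23 collagen genes 0 were called. Immediate early genes, which respond soon after a stimulus, had 0 calls among 27. Prg4, the lubricating proteoglycan lubricin, stood at 9.29 to 37.4 CPM (median 21.2) in control and 61.8 to 155 CPM (median 94.9) in scratched mice, without overlap (log2 fold change 2.10, adjusted p = 7.15e-05 from edgeR; chromosome 1 from 150325163 to 150342009). Tnc, a matrix protein of healing wounds, rose by 0.84, and Timp1, an inhibitor of matrix proteases, by 0.66. Pi16 and Cd34, which are among the markers of a fibroblast type around vessels and in the fascia, fell by 0.96 and 0.60. Which cells these falls came from was not tested. Of 12 hair follicle stem cell genes 0 rose and 2 fell, with a median of -0.24. Ltbp4, needed for elastic fibres, fell by 0.76. Pdgfra, the receptor found on fibroblasts in general, rose by 0.51.

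Hair and muscle genes differed more between mice of a group than most genes did, and few were called. The 9 tested hair shaft keratins had a median of -2.29 with 0 calls, and the 20 muscle genes a median of -1.06 with 0 calls. A gene was tested if it passed the count filter in either group. Hair genes scarce in scratched mice could thus enter through the control group alone, which favours negative medians for the shaft keratins and keratin-associated proteins. No conclusion is drawn from the sign of these medians. The summed hair keratin level ran from 13.9 to 1386 CPM in control mice and from 1.64 to 407 CPM in scratched mice, where scratched replicate 2 gave the highest and the next mouse 59.3 CPM. The summed muscle level ran from 1680 to 18267 CPM and from 284 to 11887 CPM, so the groups overlapped for both tissues. Of 23 hair keratin-associated proteins only Krtap3-2 was called, at -1.90, and in the nanomaterial mice the medians were 0.12 for the 1 shaft keratin, 0.67 for the 20 muscle genes and 0.01 for the 10 keratin-associated proteins tested there. Sebocyte and adipocyte genes, with 14 tested in each list, had medians of -0.34 and -0.34 and 1 fall each. How much hair, muscle and fat each biopsy held was not recorded in the sources used here, and its part in the falls of fatty acid synthesis genes was not tested.

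Some DEGs lay next to each other on the chromosomes. With DEGs no more than 250 kb apart counted as one cluster, 16 clusters of at least 3 DEGs held 71 of the 400 DEGs with a position (17.8%). All genes rose in 8 clusters and fell in 2, while 6 were mixed, and most are families of similar copies. The clusters not yet described include Serpina3b, Serpina3c and Serpina3j on chromosome 12, which fell, Krt6a and Krt6b beside the falling Krt77 on chromosome 15, and Slpi and Wfdc12 beside the falling Sdc4 on chromosome 2. Of the 400 DEGs matched to Gencode M39, 387 were protein coding, 6 were long non-coding RNAs and 7 were pseudogenes.

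Other mice of the series allowed the changes to be looked at without shared animals. In the 24 h mice given nanosized ZnO, TiO2 or Ag in place of PBS alone, 24 scratched and 24 intact, 1451 of 12285 genes were called (11.8%), 737 higher (6.00%) and 714 lower (5.81%). Of the 223 risen genes tested there, 222 had the same direction and 174 were called (78.0%), and of the 176 fallen genes 171 had the same direction and 115 were called (65.3%). Over all 11728 genes tested in both sets, 10.9% were called in the same direction there. The difference between the effect under PBS and the effect under nanomaterials was called for 0 of 12429 genes in edgeR, with 650 at an unadjusted p under 0.05. Values that were far apart included Wif1, an inhibitor of Wnt proteins, which fell by 1.13 under PBS and stood at 0.04 with nanomaterials.

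**Figure D3:**
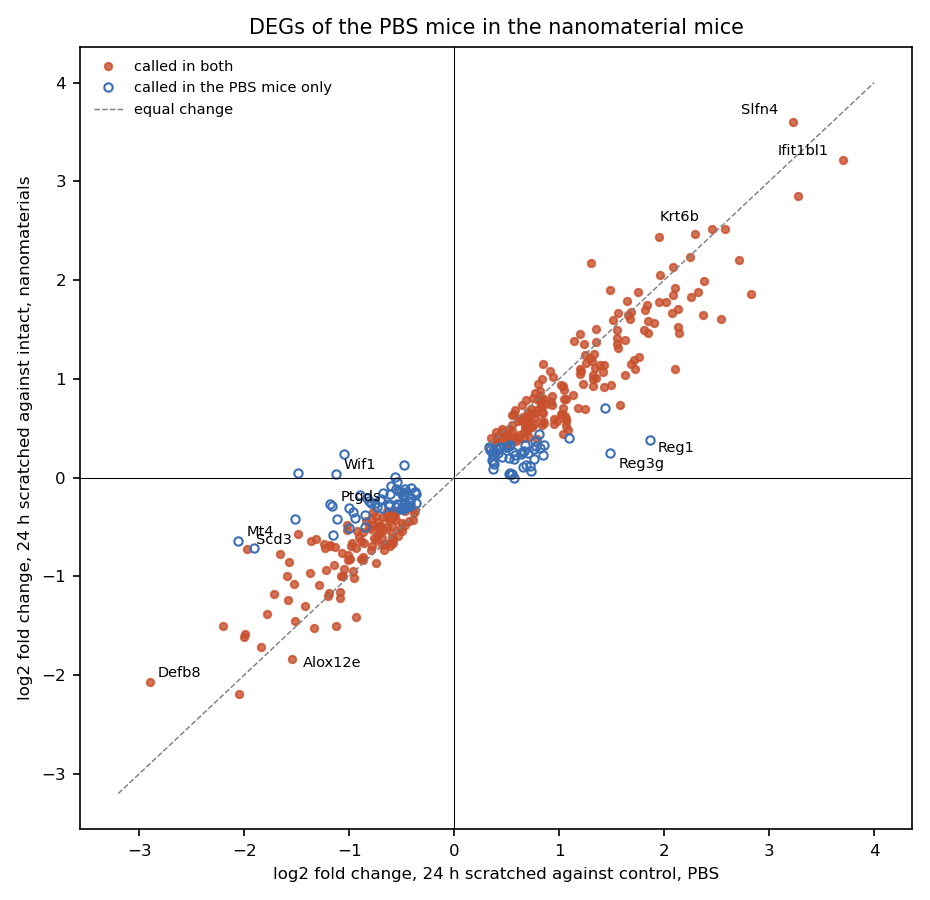
Log2 fold change of each DEG of the PBS mice (horizontal axis) and in the 24 scratched against 24 intact nanomaterial mice at 24 h (vertical axis), where filled points are genes called in both, open points those called under PBS only, and the dashed line marks equal change. Of the risen genes 222 of 223 lie above 0 on the vertical axis and of the fallen genes 171 of 176 lie below it, and Reg1, Reg3g and Wif1 lie near 0.

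The comparison of mice scratched without PBS with naive mice, 8 against 9, called 341 of 11628 genes (2.93%), 182 higher (1.57%) and 159 lower (1.37%). There 213 of the 219 risen genes tested had the same direction and 93 were called (42.5%), and 161 of the 168 fallen genes had the same direction and 44 were called (26.2%). The naive mice carry no time point, so time and scratching cannot be told apart in part of these values. The effects with and without PBS differed for 3 of 12062 genes (0.0249%), Dbp, Slc6a6 and Klhl13. Dbp, a transcription factor on chromosome 7 from 45354512 to 45359627 whose level follows the time of day, stood at 6.31 to 22.4 CPM (median 15.8) in control and 23.3 to 61.2 CPM (median 35.4) in scratched mice under PBS, without overlap and with a log2 fold change of 1.35. It was 1.50 in the nanomaterial mice and -1.08 in those without PBS, and the difference between the effects with and without PBS was 2.44 (adjusted p = 2.89e-05 from edgeR). Of the 15 clock genes tested, Dbp was the only one called under PBS, and the list median was 0.26. With pool as covariate 4 rose and 1 fell. In the nanomaterial mice 4 rose and 1 fell (median 0.25), and without PBS 1 rose and 5 fell (median -0.33). The list as a whole was not tested, and the hour at which each mouse was sampled was not used here.

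**Figure D4:**
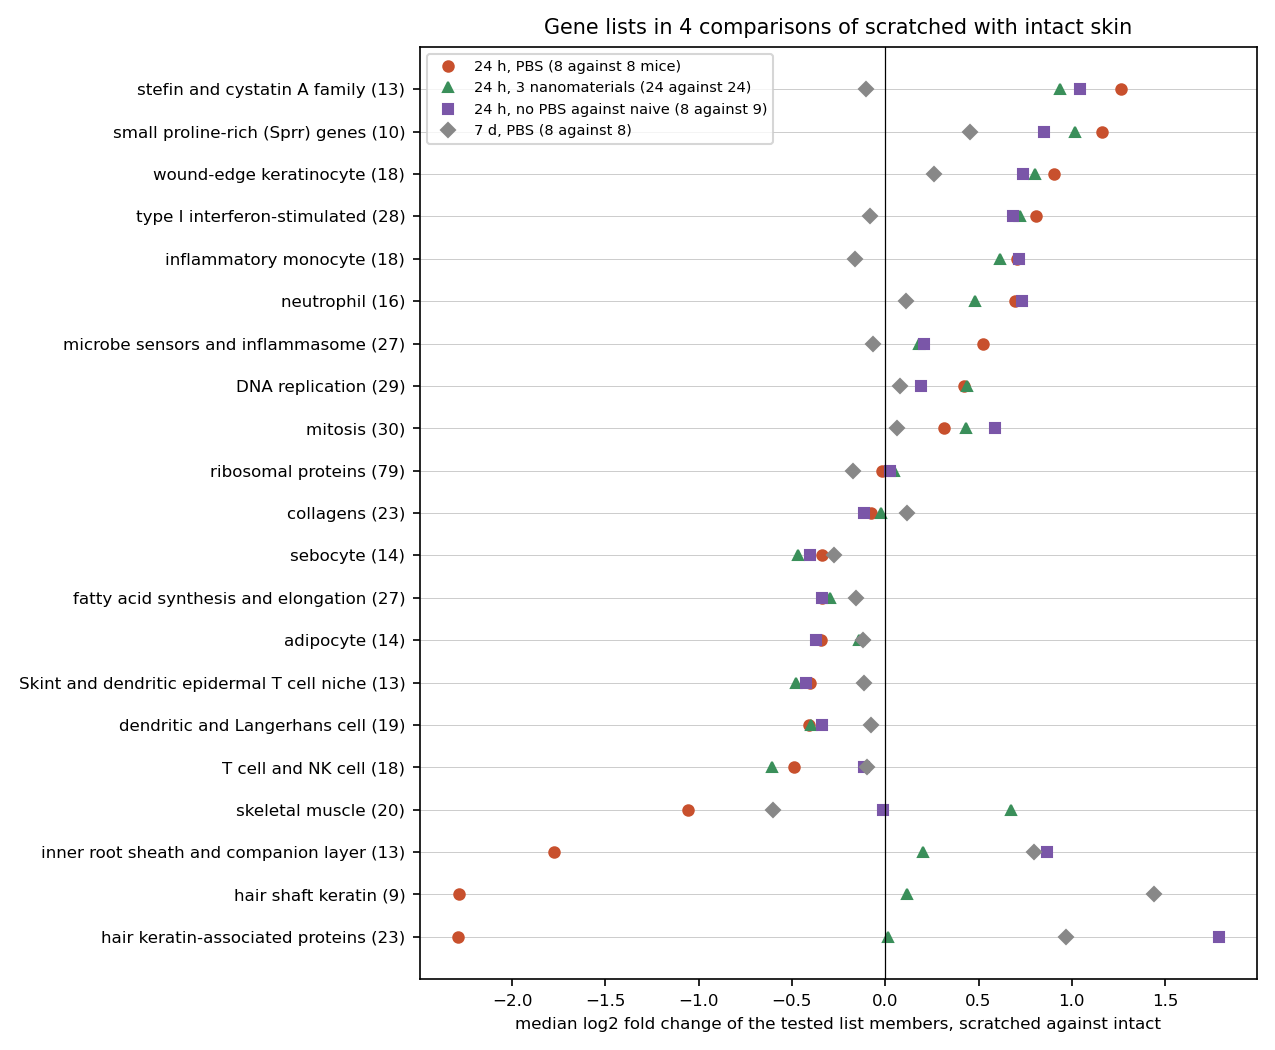
Median log2 fold change of the tested members of 21 gene lists (number tested in the PBS mice at 24 h in brackets) in 4 comparisons of scratched with intact skin: PBS at 24 h (circles), nanomaterials at 24 h (triangles), no PBS against naive at 24 h (squares) and PBS at 7 d (diamonds). The stefin, Sprr, wound-edge, interferon and monocyte lists lie to the right of 0 in the 3 comparisons at 24 h. The hair and muscle lists lie far to the left under PBS at 24 h but near or above 0 with nanomaterials. Hair genes could pass the count filter through the control group alone, which favours a negative median. No hair shaft keratin was tested in the mice without PBS.

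At 7 d 0 of 11800 genes were called between the PBS groups in edgeR, with 1302 at an unadjusted p under 0.05. Control replicate 3 of 7 d had only 201053 UMIs. Of the 207 risen genes tested at 7 d, 114 had a positive sign, and of the 174 fallen genes 119 had a negative sign. Over all 11497 genes tested at both times, 6093 had the same direction, a share near that of the risen genes and below that of the fallen genes. No pool held both scratched and control mice of 7 d, so these values carry any pool difference as well. The effect at 24 h differed from that at 7 d for 48 of 12175 genes (0.394%), or 53 without that mouse. Of the 48, Prg4 was one, with -0.18 at 7 d and a difference of 2.29 (adjusted p = 5.47e-04 from edgeR). Itga6 was another, with -0.18 at 7 d (adjusted p = 0.0348 from edgeR for the difference). For most other DEGs the difference between the times was not called.

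How far the count of DEGs depended on single mice was read from 16 fits that each left out 1 mouse. The count ran from 244 without scratched replicate 4, a mouse of pool 1, to 503 without scratched replicate 8, a mouse of pool 2. Of the 403 DEGs, 202 stayed called in every such fit (125 higher, 77 lower), and 88 were called under all 24 alternative settings. Lama3, Cxcl5, Alox12e, Apcdd1, Nfe2l2, Prg4 and Irf7 were among the 88, while Isg15, Oasl2, Spink12, Klk8, Ccl5, Dsg3, Timp1, Fzd4 and Znrf3 were called under no more than 12 of them.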

How the data were processed

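Skin RNA of the 16 mice was measured by 3′ RNA sequencing. The authors trimmed reads, discarded short ones, mapped them with STAR to GRCm39 and counted UMIs per gene with Drop-seq tools, and the deposited table holds these whole-number counts with no normalisation. RNA integrity numbers are a quality score from the deposited barcode table. The 5 GEO samples are sequencing pools, so each mouse took its group from the table's own group row and the sample sheet. As counts are UMIs, PCR copies of a molecule were counted once, and genes with shared 3′ ends can split reads.

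A gene was kept if its count exceeded 5 in 6 or more mice of a group. Kept genes were normalised by TMM and tested with edgeR 4.0.16 (quasi-likelihood, R 4.3.3) with Benjamini–Hochberg adjustment over all 11872 genes. Totals were 867915 to 2023202 UMIs per mouse, and CPM were computed over the tested genes. The 8 mice of each group are separate animals, and of 56 pairs within a group 0 had identical counts. Whether 2 effects differed was tested by an interaction term. The 24 alternatives were DESeq2 1.42.0, limma 3.58.1 voom with quality weights, all 24 h groups in 1 fit, pool as covariate, pool 1 alone, size factors by RLE, the filter dropped or required in each group, and each of 16 mice left out, and other fold thresholds were also tried. The edgeR functions were tested on simulated data.

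The comparison and the 87 gene lists were chosen with earlier results of these data known. The text names genes by a rule: the 30 largest rises and 30 largest falls averaging at least 10 CPM, the 15 smallest p and 10 highest levels in each direction, the 4 smallest p of each list, families with 3 or more DEGs, genes whose groups do not overlap, and the 10 smallest p of each interaction. Outside it, Aif1, Apcdd1, Dsg3, Esr1, Fam162a, Foxc1, Fzd4, Gata6, Gm7897, Isg15, Itga6, Lamb2, Lrat, Oas1a, Oasl2, Prlr, Ptges, Rspo1, Sox6, Tlr13, Zbp1 and Znrf3 were chosen after their values were seen. Positions and promoter windows came from Gencode M39 on the GRCm39 genome, and 400 of the 403 DEGs were matched by symbol. Protein sequences were not used here, and some genes are not reported here.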

Additional observations from a re-analysis of the deposited data

Results flagged for a closer look

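Of 320 sets of 8 values that were checked for a mouse far from the rest of its group by Dixon's criterion, 32 had one. Chance alone gives about 1 in 20 for independent, normally distributed values. Untransformed CPM of related genes are neither, so the 2 shares cannot be compared directly. All are CPM, followed in brackets by the value of the nearest mouse of the group. Scratched replicate 2 stood highest in Gm18445 495 (152), Gm7897 187 (97.7), Ifi207 85.0 (55.0), Ifit3 73.6 (37.3), Krtap3-2 119 (57.1), Lce3d 106 (38.6), Ppbp 174 (72.3), Sprr2h 327 (176) and the summed hair shaft keratins 407 (59.3). Control replicate 8 stood highest in Cd209a 85.9 (45.9), Ces1d 96.0 (66.2), Esr1 51.1 (36.4), Ltbp4 50.3 (33.7) and Mgl2 101 (56.3). Control replicate 4 stood highest in Cxcl11 4.49 (1.73), Ifit1bl1 3.37 (1.08), Isg15 18.0 (9.71) and Ms4a4c 42.7 (24.8). Control replicate 6 stood highest in Lce3c 67.7 (34.5), Lce3d 27.6 (9.70), Lce3f 54.3 (20.2) and Spink7 7.08 (2.49). Scratched replicate 4 stood highest in Timp1 692 (472) and Tlr13 45.8 (30.3) and stood lowest in Skint10 9.64 (19.5). Control replicate 1 stood highest in Acss2 59.6 (48.8) and Ccl20 61.3 (38.8). Scratched replicate 8 stood highest in Cd209a 37.7 (20.5) and Fcgr3 194 (133). Control replicate 7 stood highest in Ahr 202 (141). Scratched replicate 5 stood highest in Spink7 30.0 (15.5). Scratched replicate 7 stood highest in Wfdc21 332 (257). Leaving out the mouse concerned is among the fits that gave the range of each call.

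The effect of scratching at 24 h differed from that at 7 d in an interaction test for 22 of the genes named in the text (edgeR, adjusted p 5.47e-04 to 0.0476), although no pool held mice of both 7 d groups. The log2 fold change at 24 h minus that at 7 d was positive for Aif1 1.00, C3ar1 1.31, Csta1 1.10, Cxcl5 1.95, Itga6 0.72, Lcn2 1.78, Ms4a4c 2.81, Ms4a6b 1.46, Ms4a6c 1.33, Ms4a6d 1.65, Prg4 2.29 and Stfa2l1 2.32. It was negative for Alox12e -1.47, Klhl13 -1.55, Krt77 -1.77, Krtap3-2 -2.31, Lce1m -1.46, Ltbp4 -0.97, Mgl2 -1.80, Serpina3b -1.35, Serpina3j -1.92 and Skint5 -1.73. The effect with PBS minus that without PBS was Dbp 2.44, Klhl13 -2.002 and Slc6a6 0.86, with adjusted p of 2.89e-05, 0.0298 and 3.31e-04 from edgeR in the same order. Among these genes, Stfa2l1, the Ms4a6 genes and Prg4 rose at 24 h and had larger effects then than at 7 d. So did Alox12e, Krt77 and Skint5 among the genes that fell, and all were picked for their change at 24 h.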

How the results depend on the processing

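The count of 403 DEGs was 241 within pool 1, 244 without scratched replicate 4, and 156 when a log2 fold change of 1 or more in either direction was required. Leaving out 1 mouse at a time gave 244 to 503 DEGs. Under the other settings it stayed within 1.5 times of 403, with 316 in a fit of all 24 h groups, 345 with the filter in each group, 403 with RLE size factors, 403 with pool as covariate, 414 with limma voom, 507 without a filter and 546 with DESeq2. None of the 403 DEGs changed sign under any of the 24 settings, but every setting reused mice by which the DEGs were called. Of the 149 DEGs named in the text, 44 kept their call under every setting that tested them. A gene that a filter removed was not counted as losing its call, whereas the 88 DEGs above were called under all 24 settings. Of 3537 single values, 639 had the same sign but missed the threshold, the largest number of them within pool 1 (73). No paired analysis was possible because replicate numbers name mice in order and mark no shared animal, litter or day. Lowly expressed genes such as Slfn4 and Spink7 rest on few UMIs in control mice.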
